A study of Mus musculus with 96 samples.

Results

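The replication-dependent histone genes are those whose symbol starts with Hist1h, Hist2h, Hist3h or Hist4. The mouse annotation used to name transcripts (GENCODE vM21) holds 70 of them. Of these, 66 were measured here, among 37945 genes in all, and Hist1h2bh, Hist1h2bm, Hist1h3h and Hist1h3i were not analysed here. The 66 comprise 6 H1, 20 H2A, 17 H2B, 10 H3 and 13 H4 genes, and 3 of them (Hist1h2aj, Hist1h2al and Hist3h2bb-ps) are annotated as pseudogenes. The genes lie in clusters: 52 are on chromosome 13, 10 on chromosome 3, 3 on chromosome 11 and 1 on chromosome 6. The samples are cultured osteoblasts, the bone-forming cells, of 42 strains of the Collaborative Cross, a panel of recombinant inbred mice that mixes several founder genomes. Cells were released from the skull caps of pups aged 3 to 5 days, grown for 48 hours and then held in differentiation medium (ascorbic acid, beta-glycerol phosphate) for 10 days, in which cultures mineralize. Libraries came from 200 ng of total RNA by a stranded kit that removes ribosomal RNA and keeps RNAs without a poly(A) tail.

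Each strain is its own group: CC001, CC002, CC003, CC004, CC005, CC006, CC007, CC008, CC009, CC010, CC011, CC012, CC013, CC015, CC016, CC019, CC023, CC024, CC025, CC028, CC030, CC032, CC035, CC037, CC038, CC039, CC040, CC041, CC042, CC043, CC044, CC045, CC051, CC053, CC055, CC057, CC059, CC061, CC065, CC071, CC074 and CC075. All groups had the same treatment and time, and none was an untreated control. There were 96 sequencing runs of 95 samples, since 1 CC030 sample was sequenced 2 times, and its runs were averaged to give 95 libraries: 2 libraries in 31 strains, 3 in 2 strains, 4 in 6 strains, and a single library each for CC011, CC024 and CC035. Replicate numbers used below follow the order of the sample records and pair nothing across strains. Sex and litter are not labelled, nor is it said if replicates are different animals, cultures or pools. The p-values therefore measure only how far these samples spread, and some of that spread may be technical. The 15 osteoblast markers summed to between 10760 and 31720 scaled TPM per library, and none was at 0 in any library. The 15 measured macrophage markers summed to between 39.03 and 5840 scaled TPM. Of the marker lists of other cell types, 5 of 8 osteoclast genes, 3 of 6 endothelial, 2 of 7 erythroid, 3 of 7 skeletal muscle, 4 of 6 neural and glial and 2 of 5 epidermal genes reached the level needed for testing.

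Replication-dependent histone genes supply the core histones H2A, H2B, H3 and H4, around which DNA is wound, and the linker histone H1. They are known to be transcribed in S phase, when new DNA needs new nucleosomes, and most have no introns. Their mRNAs are the metazoan mRNAs that end in a stem-loop in place of a poly(A) tail. SLBP binds that stem-loop, and the U7 snRNP with the cleavage complex cuts the transcript just after it. Some of the genes, such as Hist1h1c and Hist1h2bc, are also known to give mRNAs with a poly(A) tail in cells that have left the cycle.

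The stem-loop is shown because it sets these mRNAs apart from other mRNAs. The GENCODE vM21 models (GRCm38) of 42 of the 66 measured genes held the histone stem-loop consensus, 16 nt long, against 10 of 91151 transcripts of other genes in the table (0.011%). The capitals mark the stem-loop, with 5 nt on each side:
Hist1h1c: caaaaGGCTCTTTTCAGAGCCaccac
Hist1h2ab: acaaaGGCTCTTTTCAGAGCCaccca
Hist1h2bb: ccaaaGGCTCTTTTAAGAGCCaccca
Hist1h3b: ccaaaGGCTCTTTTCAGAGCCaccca
Hist1h3g: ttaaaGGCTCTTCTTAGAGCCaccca
Hist1h4d: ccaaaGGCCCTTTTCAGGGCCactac
Hist1h4i: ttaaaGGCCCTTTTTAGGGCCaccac
Hist4h4: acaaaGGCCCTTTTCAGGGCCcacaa

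The stem separated the H4 genes from the other classes. All 10 H4 genes with a match had the stem that starts with GGCCC, and all 32 matches in H1, H2A, H2B and H3 genes had the stem that starts with GGCTC. Of the 62 tested genes, 21 had no match in their model. Some of these models are short, such as those of Hist1h2bl and Hist1h2bn at 381 nt, and some are long, such as those of Hist1h2bc at 1156 nt and Hist2h2be at 2620 nt. Other models run far past it, by 840 nt in Hist1h1c, 1643 nt in Hist3h2a, 2445 nt in Hist4h4 and 4884 nt in Hist1h1d. Because TPM is corrected for the length of the model, a read from the stem-loop end of an extended model and one from a coding-only model do not weigh alike.

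Promoters were available for 58 of the 66 genes (RefSeq, GRCm38.p6, 250 bases before to 50 after the start). For each class, the 200 bases before the start are shown for the gene with the closest relation to the cell cycle score described further on. The letters searched, on both strands, were the CCAAT box, the H1 box AAACACA known from H1 promoters, the octamer ATTTGCAT known from H2B promoters, and the TATA box TATAAA. Capitals mark every match. Hist1h1b is at chr13:21780626-21780825 on the minus strand, Hist1h2ai at chr13:21716212-21716411 on the plus strand, Hist1h2bk at chr13:22035621-22035820 on the plus strand, Hist1h3d at chr13:23575563-23575762 on the plus strand and Hist1h4f at chr13:23551669-23551868 on the minus strand:
Hist1h1b: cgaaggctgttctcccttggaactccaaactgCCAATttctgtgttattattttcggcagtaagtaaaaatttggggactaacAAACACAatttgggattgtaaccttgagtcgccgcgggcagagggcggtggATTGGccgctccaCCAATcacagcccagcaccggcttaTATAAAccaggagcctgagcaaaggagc
Hist1h2ai: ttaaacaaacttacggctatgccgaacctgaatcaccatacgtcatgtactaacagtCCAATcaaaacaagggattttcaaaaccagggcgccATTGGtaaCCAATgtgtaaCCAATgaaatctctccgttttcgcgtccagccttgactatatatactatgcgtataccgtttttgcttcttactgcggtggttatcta
Hist1h2bk: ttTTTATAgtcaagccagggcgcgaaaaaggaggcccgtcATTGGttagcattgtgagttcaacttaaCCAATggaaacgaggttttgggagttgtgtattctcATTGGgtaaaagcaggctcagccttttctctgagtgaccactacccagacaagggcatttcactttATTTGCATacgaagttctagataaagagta
Hist1h3d: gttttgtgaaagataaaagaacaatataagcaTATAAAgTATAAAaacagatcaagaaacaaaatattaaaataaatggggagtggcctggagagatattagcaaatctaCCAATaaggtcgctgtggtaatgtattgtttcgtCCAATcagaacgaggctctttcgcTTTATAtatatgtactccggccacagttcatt
Hist1h4f: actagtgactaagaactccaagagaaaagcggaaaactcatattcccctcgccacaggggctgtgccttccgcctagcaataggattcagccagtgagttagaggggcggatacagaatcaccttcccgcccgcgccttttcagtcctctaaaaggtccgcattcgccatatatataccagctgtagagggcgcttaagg

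CCAAT was found in the 300-base window of all 6 H1, 18 H2A, 14 H2B and 8 H3 genes with a promoter and in 3 of 12 H4 genes, against 37.4% of all 32851 promoters of the same length. AAACACA was found in 5 of 6 H1 genes, 2 H2A genes and 1 H2B gene, against 7.18% of all promoters. ATTTGCAT was found in 7 of 18 H2A and 6 of 14 H2B genes and in none of the other classes, against 1.74% of all promoters. H2A and H2B genes of the clusters can stand head to head, so their windows can share letters. TATAAA was found in 33 of the 58 genes, against 13.6% of all promoters. A match is a description of the letters and not evidence of a bound factor.

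Summed over all measured members, the histone transcripts had a median of 1404 scaled TPM over the 95 libraries, with a lowest value of 466 (CC051 replicate 1) and a highest of 5363 (CC028 replicate 2). TPM corrects for transcript length and for the total of each library, and scaled TPM is the deposited TPM divided by a scaling factor for each library. H4 genes had the largest sum, with a median of 586 (194 to 1918), followed by H2B with 329 (125.9 to 1495), H2A with 232.1 (49.3 to 860), H1 with 177.4 (81.4 to 498) and H3 with 79.7 (14.8 to 592). Hist1h3h and Hist1h3i of H3 and Hist1h2bh and Hist1h2bm of H2B are not in these sums. Gm20634, which is not a member but shares sequence with some H2A and H3 genes, is not in them either. The H3 sum spanned 39.9-fold between libraries, the H2A sum 17.4-fold and the H1 sum 6.12-fold. In these bulk samples, fewer dividing cells and less histone RNA per dividing cell cannot be told apart. Leaving out genes that share at least 50% of their 50-base stretches with another gene took the median of H2A to 41.3, of H2B to 156.7, of H3 to 29.6 and of H4 to 453.5. The H1 median stayed at 177.4, which then lay above that of H2B, so the order of the classes depends on these shared genes.

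Levels differed widely within each class. Of the H4 genes, Hist1h4c had a median of 131.6 scaled TPM (51.6 to 333) and Hist1h4d one of 129 (50.7 to 423), followed by Hist1h4h with 85.5 (24.6 to 269) and Hist1h4n with 84.2 (4.12 to 267). Of the linker histone genes, Hist1h1c had a median of 86.7 (41.0 to 132.5) and Hist1h1e one of 57.9 (27.3 to 188.4). Hist1h1b and Hist1h1a had medians of 13.02 (4.13 to 98.5) and 11.2 (2.72 to 64.5). H2B was led by Hist1h2bc at 73.2 (40.8 to 113), Hist2h2bb at 63.0 (30.3 to 172.7), Hist1h2bb at 36.5 (lowest 7.74) and Hist1h2bg at 33.8 (11.1 to 155). H2A was led by Hist2h2aa2 at 68.8 (19.7 to 128.3), Hist1h2al at 31.6 (at or near 0 to 245), Hist2h2ac at 24.0 (6.197 to 57.4) and Hist1h2ab at 18.7 (2.19 to 172). H3 was led by Hist1h3e at 15.8 (4.54 to 76.9), Hist1h3b at 15.7 (1.92 to 133), Hist1h3f at 10.6 (0.830 to 61.4) and Hist1h3a at 10.1 (1.70 to 87.1).

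Levels of the remaining genes were lower. In all, 30 of the 66 genes had a median of at least 10 scaled TPM, and 10 had a median under 1. The testis-specific linker histone gene Hist1h1t had a median of 0.192 and a highest value of 0.718. Hist1h2aa and Hist1h2ba, the testis-specific H2A and H2B genes, reached at most 0.138 and 0.1555. These 2 genes, Hist1h2aj and Hist3h2ba did not pass the filter on low values, so 62 members were tested. Of the members with more than 1 transcript in the table and a median of at least 1, Hist1h2be had a median of 7.58 (2.79 to 24.6), Hist1h2bp 4.28 (0.271 to 23.6), Hist1h2bq 9.22 (0.981 to 55.6) and Hist1h2br 16.4 (3.89 to 120). In each of these, 1 transcript carried most of the level, such as the 2480 nt transcript of Hist1h2be at a median of 6.46 beside 0.563 and 0.391 for the others.

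**Figure D1:**
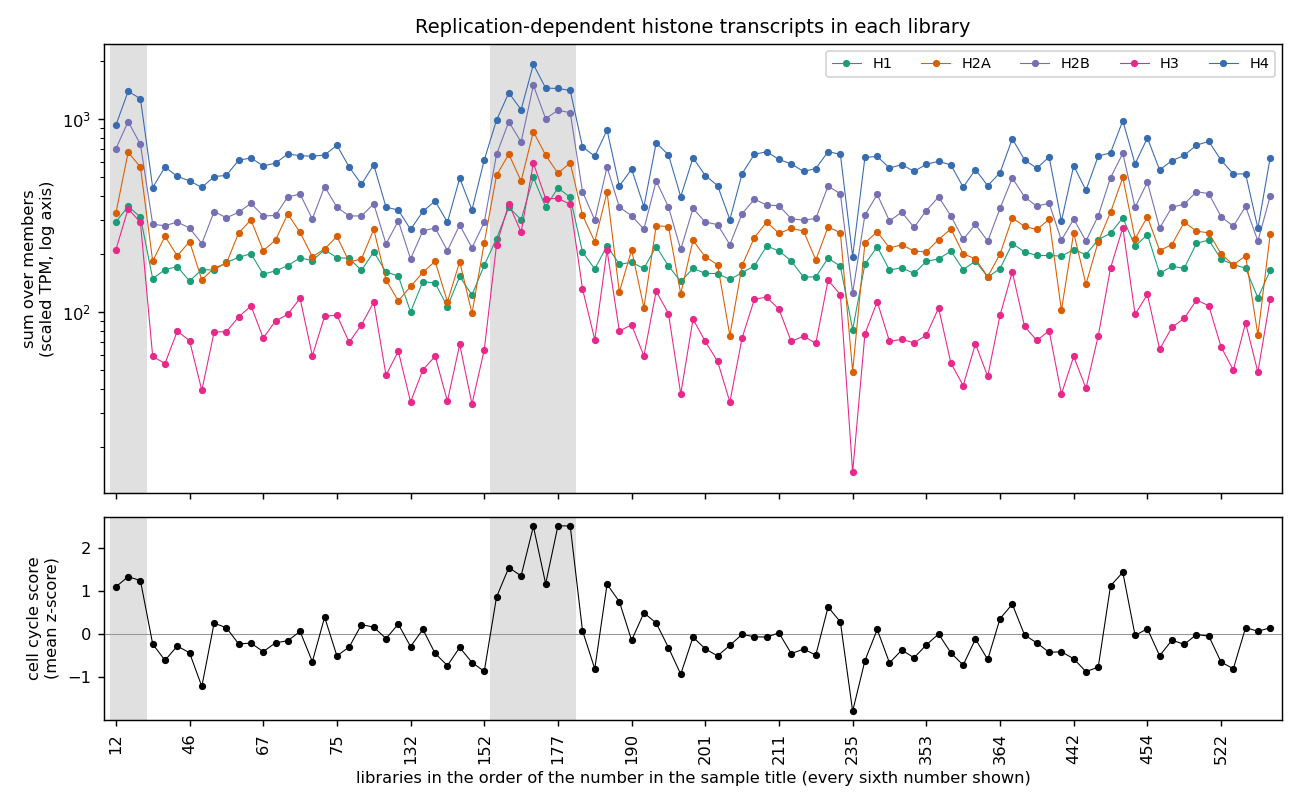
Upper panel: sum of each histone class (scaled TPM, log axis) in 95 libraries placed in the order of the number in the sample title. Lower panel: cell cycle score of the same libraries (mean z-score of 32 genes). The 10 shaded libraries, with titles Farber_12 to Farber_20 and Farber_153 to Farber_179, have totals from 2458 to 5363, and only 1 other library, of CC074 at 2725, lies as high.

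The libraries with the highest histone levels were neighbours in the numbering of the sample titles, and the labels do not say what that number stands for. All 10 libraries with titles Farber_12 to Farber_20 or Farber_153 to Farber_179, from 8 strains, had totals between 2458 and 5363 scaled TPM. The 12 other libraries of the same 8 strains had totals between 755 and 1981. The 10 were picked after their histone levels were seen, so this gap is no test. In CC028, replicate 1 had 1034 and replicate 2 had 5363. In CC023, replicate 1 had 755 and replicate 2 had 3900. Hist1h3b, an H3 gene, was at 8.64 scaled TPM in CC028 replicate 1 and at 133 in replicate 2, and Hist1h1b at 8.84 and 98.5.

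The high libraries also had a high cell cycle score, the mean z-score of 32 genes of DNA replication and the S phase, none of them a histone gene. Their scores ran from 0.85 to 2.50, and those of the 12 other libraries of the same strains from -1.21 to 0.69. Macrophage markers summed to between 63.0 and 1002 scaled TPM in the 10 libraries and to between 49.5 and 2000 in the 12 others, with 0 and 1 of 15 markers at 0 in any library, and osteoblast markers to between 16210 and 31300 and between 13160 and 27510. The part of these differences in the histone levels was not tested. Of the 62 tested members, 52 had their highest library among these 10 and 37 in CC028 replicate 2. The lowest library of 39 members was CC051 replicate 1, whose cell cycle score of -1.78 was also the lowest. The 10 libraries were picked after their histone levels were seen, so the count of 52 is no independent result about the members. The matching counts over all genes are not given here. The 2 CC074 libraries were both high, at 1920 and 2725, with scores of 1.11 and 1.43.

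Libraries of 1 strain differed in their histone total by a median of 1.41-fold over the 39 strains with 2 or more (1.01-fold in CC057 to 5.19-fold in CC028), and by more than 2-fold in 9 strains. The CC030 sample that was sequenced 2 times gave 1 example of technical spread, which need not be typical of the other samples. Its deposited TPM summed over the members was 949 in the first run and 1446 in the second, a ratio of 1.52. This ratio is on unscaled TPM, and the median of 1.41-fold between libraries of a strain is on scaled TPM, so the 2 are not directly comparable. The ratio was 2.31 for H2A (85.7 in the first run), 1.75 for H4 (305 and 533), 1.66 for H3 (58.6 and 97.3), 1.35 for H2B (313 and 423) and 1.048 for H1 (186.5 and 196). With 1 sample there is no test of these ratios.

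**Figure D2:**
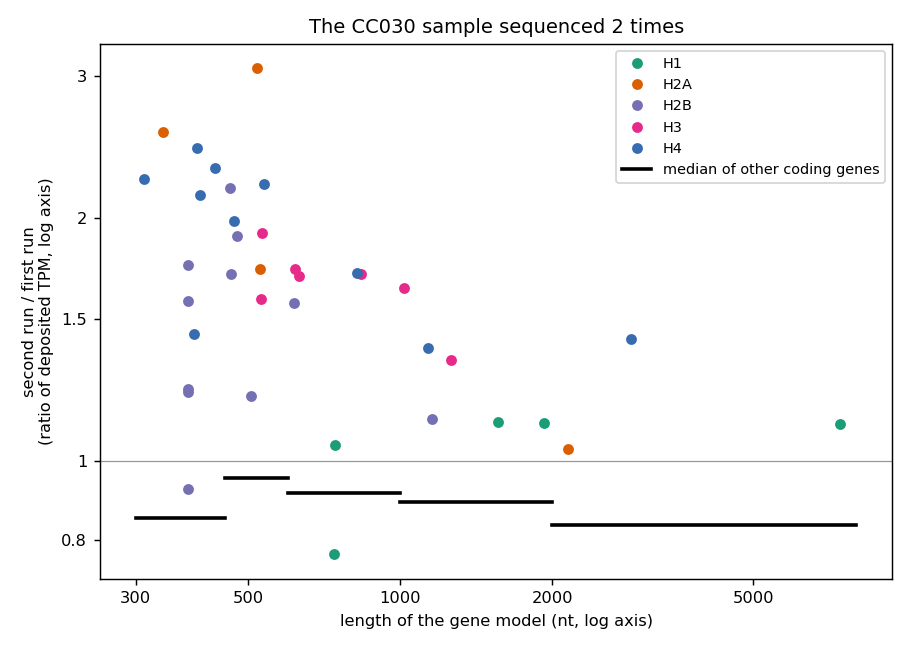
Ratio of deposited TPM in the second run to the first run of the CC030 sample against the length of the gene model, both on log axes, for the 37 histone genes with at least 5 TPM in both runs (points, coloured by class). Black bars are medians of other protein-coding genes with 1 transcript in the same length range: histone genes with short models lie between 0.92 and 3.06, while the black bars stay between 0.84 and 0.95.

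The ratio between the runs had a lower median in the longer gene models, with exceptions in each range. Members with models under 450 nt had a median ratio of 1.75 (11 genes, 0.925 to 2.55) and those from 450 to under 600 nt one of 1.91 (10 genes, 1.21 to 3.06). Members from 600 to under 1000 nt had a median of 1.69 (7 genes, 0.767 to 1.73), those from 1000 to under 2000 nt one of 1.23 (6 genes, 1.12 to 1.64) and those of 2000 nt or more one of 1.11 (3 genes, 1.035 to 1.42). Other protein-coding genes in the same length ranges had medians of 0.852, 0.954, 0.914, 0.8905 and 0.835, and the 32 cell cycle genes had a median of 0.851 (0.646 to 1.29). Hist2h2ac differed most, with 7.67 TPM in the first run and 23.5 in the second. Hist1h1c (77.7 and 87.0), Hist1h2bc (106 and 120) and Hist3h2a (7.23 and 7.48), which have models over 1000 nt, differed by at most 1.13-fold. Others of that length differed more, such as Hist2h3c2 (1.64-fold), Hist4h4 (1.42-fold) and Hist1h4d (1.38-fold), and Hist1h1a at 741 nt was lower in the second run (0.767).

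The classes also differed in proportion across libraries. The ratio of the H2A sum to the H1 sum, which does not depend on the scaling, had a median of 1.28 (0.512 to 2.13). It was 0.460 in the first run of the CC030 sample, 1.01 in its second run and 1.40 in the other CC030 library. Of the 95 libraries, 8 had a ratio under 0.8: CC030 replicate 1 (the mean of both runs), CC004 replicate 2, CC002 replicate 2, CC025 replicate 1, CC051 replicate 1, CC013 replicate 1, CC045 replicate 1 and CC071 replicate 1. In CC071, the 2 libraries had cell cycle scores of 0.06 and 0.14, H1 sums of 118.5 and 164.5, and H2A sums of 76.1 and 253. The cause of this spread was not tested.

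Whether histone levels differed between strains was tested with limma on all genes, over the 39 strains with 2 or more libraries (92 libraries). Of the 62 members, 19 passed at an adjusted p under 0.05 (30.6%), whereas 81.5% of all 15760 genes tested did. The intraclass correlation, the share of variance that lies between strains, had a median of 0.14 over the members and of 0.47 over all genes. By class, 2 of 6 H1, 5 of 18 H2A, 5 of 15 H2B, 3 of 10 H3 and 4 of 13 H4 genes passed. The summed level of a class had intraclass correlations of -0.05 for H1, 0.05 for H2A, -0.02 for H2B, 0.06 for H3 and -0.08 for H4. The log2 range of strain means, lowest to highest, had a median of 2.49 on the log2 scale over members and 1.02 over all genes.

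The counts differed between sets of libraries. Without the 10 high libraries, 54 of 62 members passed, against 86.0% of all genes. These 10 were chosen after their histone levels were seen, so leaving them out narrows the spread of histone genes within strains by construction, and that count is no support for strain differences. Over the 19 strains whose libraries have numbers within 5 of each other, 57 of 61 members passed, against 87.0% of all genes. Over the 20 strains with numbers 20 or more apart, 9 of 62 passed, against 41.7% of all genes. That fit kept only the lowest and the highest numbered library of each strain. On deposited TPM without the scaling 42 passed, against 81.5% of all genes. Strain and neighbourhood in the numbering cannot be told apart where libraries of a strain are close in number.

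**Figure D3:**
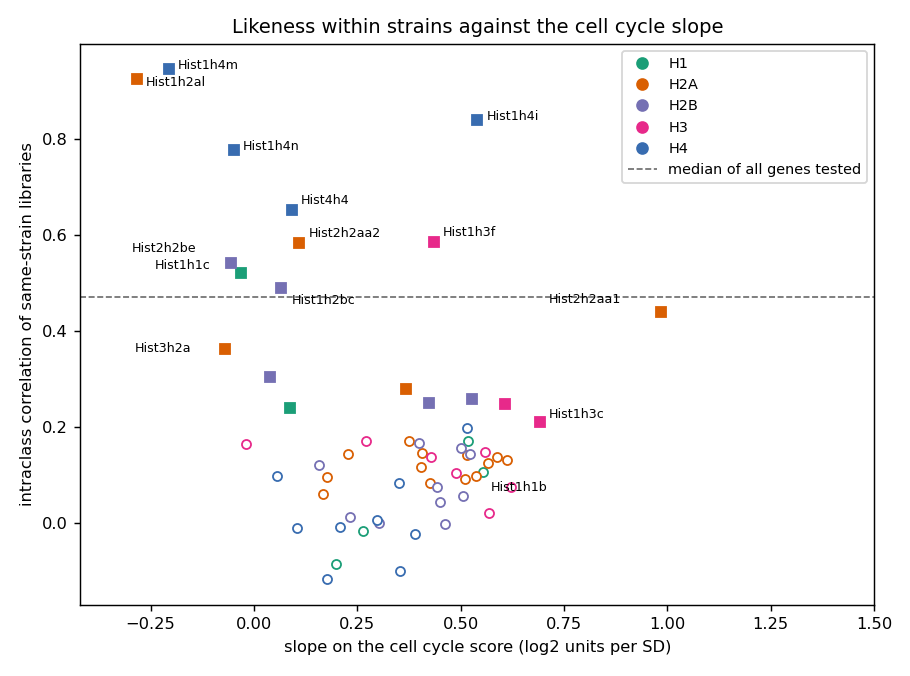
Intraclass correlation of libraries of a strain against the slope on the cell cycle score (log2 units per SD of the score) for 62 histone genes; filled squares passed the strain test and open circles did not, and the dashed line is the median of all genes tested (0.47). Hist1h4m, Hist1h2al, Hist1h4i and Hist1h4n lie highest, and most genes with a steep slope lie below the line.

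Histone genes moved with the cell cycle score, both over strain means and between libraries within strains. A strain mean averages libraries that can differ widely, as in CC028 and CC023, so the relation over strain means is not one of strains alone. Over the 42 strain means, 45 of 62 members were higher with a higher score and none was lower (limma, adjusted p under 0.05), against 2.85% of all genes higher and 1.38% lower. The median slope was 0.39 log2 units per SD of the score for the members and 0.00 for all genes. On deposited TPM, where the median slope of all genes was 0.07, the members' median was 0.41 and 44.4% of all genes were higher, 52 of the 62 members among them. Without CC074 and CC028, the 2 strains with scores farthest from the median, 39 members were higher (2.89% of all genes), and without the 10 high libraries 38 were (4.01% of all genes). Hist1h3f, Hist1h4h, Hist1h2ac, Hist2h2ab and Hist2h2ac lost their call under both. Hist2h3b lost it only under the first, and Hist1h4d and Hist1h2ap only under the second. Within strains, over libraries with strain as a factor, 57 members were higher (17.2% of all genes) and Hist2h2be was lower (17.2% of all genes). Over the 19 strains with close sample numbers the count was 22 of 61 (1.42% of all genes), and over the 20 with distant numbers 36 of 62 (2.05% of all genes).

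**Figure D4:**
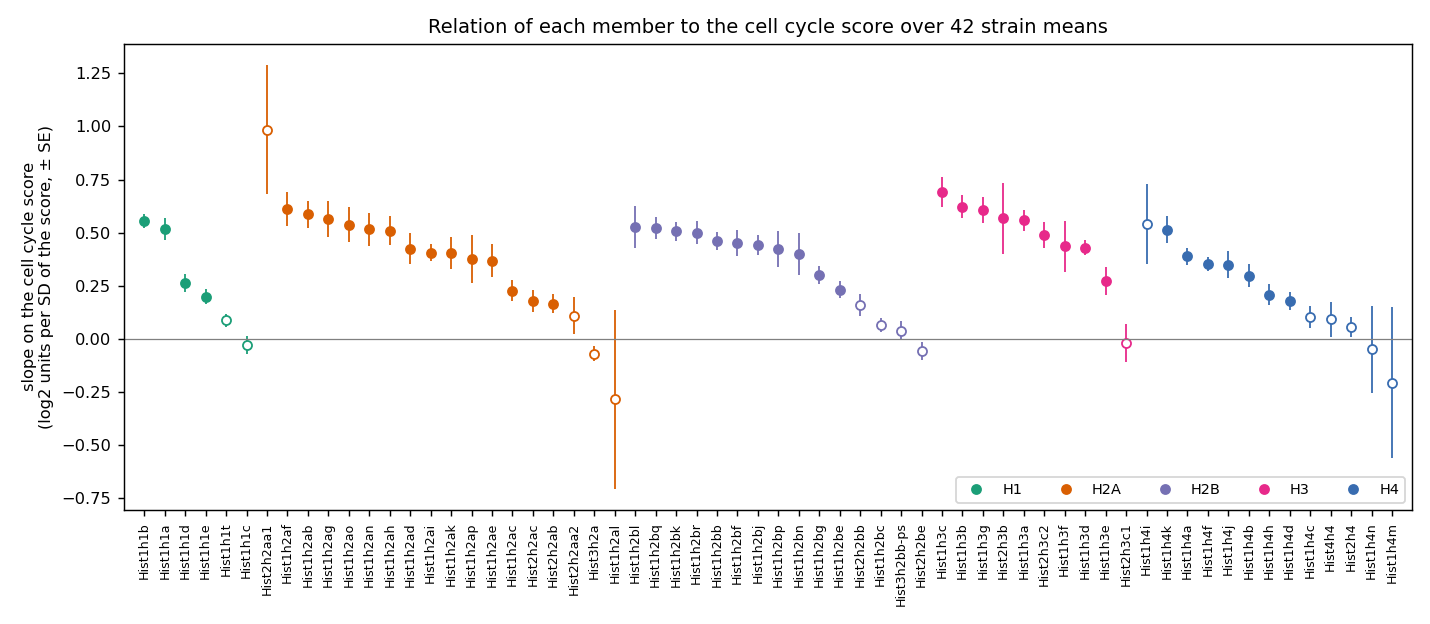
Slope of each tested histone gene on the cell cycle score over 42 strain means (log2 units per SD of the score, error bars are SE), ordered within each class; filled points passed at an adjusted p under 0.05. In each class a run of genes lies between 0.2 and 0.7, and Hist1h1c, Hist1h2bc, Hist2h2be and Hist3h2a lie near 0.

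Among the linker histone genes, 4 of 6 were higher with the score. Hist1h1b, which encodes H1.5, had a slope of 0.55 ± 0.03 (SE, adjusted p = 1.1e-16 by limma) and Hist1h1a one of 0.52 ± 0.05 (adjusted p = 1.4e-10). Hist1h1d and Hist1h1e, which encode H1.3 and H1.4, had slopes of 0.27 ± 0.04 and 0.20 ± 0.04. Hist1h1c, which encodes H1.2 and is the most abundant of the class, had a slope of -0.03 ± 0.04 (adjusted p = 0.76), and Hist1h1t one of 0.09 ± 0.03 (adjusted p = 0.093). Within strains Hist1h1c did pass, with a slope of 0.11 (adjusted p = 0.0017) beside 0.87 for Hist1h1b.

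Of the H2A genes, 14 of 18 were higher with the score. Hist1h2ab had a slope of 0.59 ± 0.06 (adjusted p = 1.1e-09 by limma) and Hist2h2ac one of 0.18 ± 0.05 (adjusted p = 0.040). Hist3h2a, the H2A gene of the small cluster on chromosome 11, had a slope of -0.07 ± 0.04 (adjusted p = 0.31), and Hist2h2aa2 one of 0.11 ± 0.09 (adjusted p = 0.53). Hist2h2aa1, with 0.98 ± 0.30, and Hist1h2al, with -0.28 ± 0.42, had the widest errors of the class and did not pass.

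Of the H2B genes, 11 of 15 were higher. Hist1h2bb had a slope of 0.46 ± 0.04 (adjusted p = 2.1e-11 by limma), Hist1h2bk one of 0.51 ± 0.05 and Hist1h2bg one of 0.30 ± 0.04. Hist1h2bq and Hist1h2br, which share all their 50-base stretches with other genes, had 0.52 ± 0.05 and 0.50 ± 0.05. Hist1h2bp and Hist1h2be had 0.42 ± 0.08 and 0.23 ± 0.04. Hist1h2bc, the most abundant H2B gene, had 0.07 ± 0.03 (adjusted p = 0.31), Hist2h2bb 0.16 ± 0.05 (adjusted p = 0.070) and Hist2h2be -0.05 ± 0.04 (adjusted p = 0.53).

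H3 had the largest share, with 9 of 10 genes higher. Hist1h3b had a slope of 0.62 ± 0.06 (adjusted p = 6.0e-12 by limma), Hist1h3a one of 0.56 ± 0.05, Hist1h3f one of 0.44 ± 0.12 (adjusted p = 0.026) and Hist1h3e one of 0.27 ± 0.06 (adjusted p = 0.0063). The gene that did not pass, Hist2h3c1, had a median of 0.107 scaled TPM and is named here after its values were seen. Of the H4 genes, 7 of 13 were higher. Hist1h4f had a slope of 0.35 ± 0.03 (adjusted p = 8.3e-12), Hist1h4h one of 0.21 ± 0.05 (adjusted p = 0.0066) and Hist1h4d one of 0.18 ± 0.04 (adjusted p = 0.0040). Hist1h4c, the H4 gene with the highest median, had 0.10 ± 0.05 (adjusted p = 0.28), and Hist4h4 had 0.09 ± 0.08 (adjusted p = 0.60).

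The calls for strain and for the cell cycle score divided the members as follows. Of the 62, 39 passed only on the score, 13 only on strain, 6 on both and 4 on neither. Over all genes tested, 81.5% passed on strain and 2.85% were higher with the score. The all-gene shares of these divisions, and of the splits by cluster and model end below, are not given here, so the counts only describe the members. The 13 with a strain call alone were Hist1h1c, Hist1h1t, Hist1h2al, Hist1h2bc, Hist1h4i, Hist1h4m, Hist1h4n, Hist2h2aa1, Hist2h2aa2, Hist2h2be, Hist3h2a, Hist3h2bb-ps and Hist4h4. All 3 tested genes of the Hist3 and Hist4 loci were among them. Of the 49 tested Hist1 genes, 41 were higher with the score, and 4 of the 10 Hist2 genes were. Of the 16 genes whose model runs at least 300 nt past the stem-loop, 9 were higher with the score and 5 passed for strain. Of the 25 with a shorter end, 20 were higher with the score and 9 passed for strain.

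Some of the widest called ranges between strains were in near-identical copies. Hist1h4m and Hist1h4n, H4 genes of the Hist1 cluster, have the same 312 nt reading frame in GENCODE vM21, with 0 differences. Hist1h4i differs from both at 10 of 312 positions. A stretch of 120 nt from position 190 of the reading frame is shown, counted from the start codon, with capitals at the 6 positions in it where the 3 genes differ:
Hist1h4i: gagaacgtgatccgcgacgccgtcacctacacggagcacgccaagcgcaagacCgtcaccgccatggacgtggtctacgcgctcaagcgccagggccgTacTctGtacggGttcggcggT
Hist1h4m: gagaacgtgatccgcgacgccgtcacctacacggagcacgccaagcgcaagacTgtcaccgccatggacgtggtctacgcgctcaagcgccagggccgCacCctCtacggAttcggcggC
Hist1h4n: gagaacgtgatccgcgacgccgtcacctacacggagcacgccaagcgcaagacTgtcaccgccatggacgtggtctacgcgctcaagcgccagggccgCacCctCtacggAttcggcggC

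**Figure D5:**
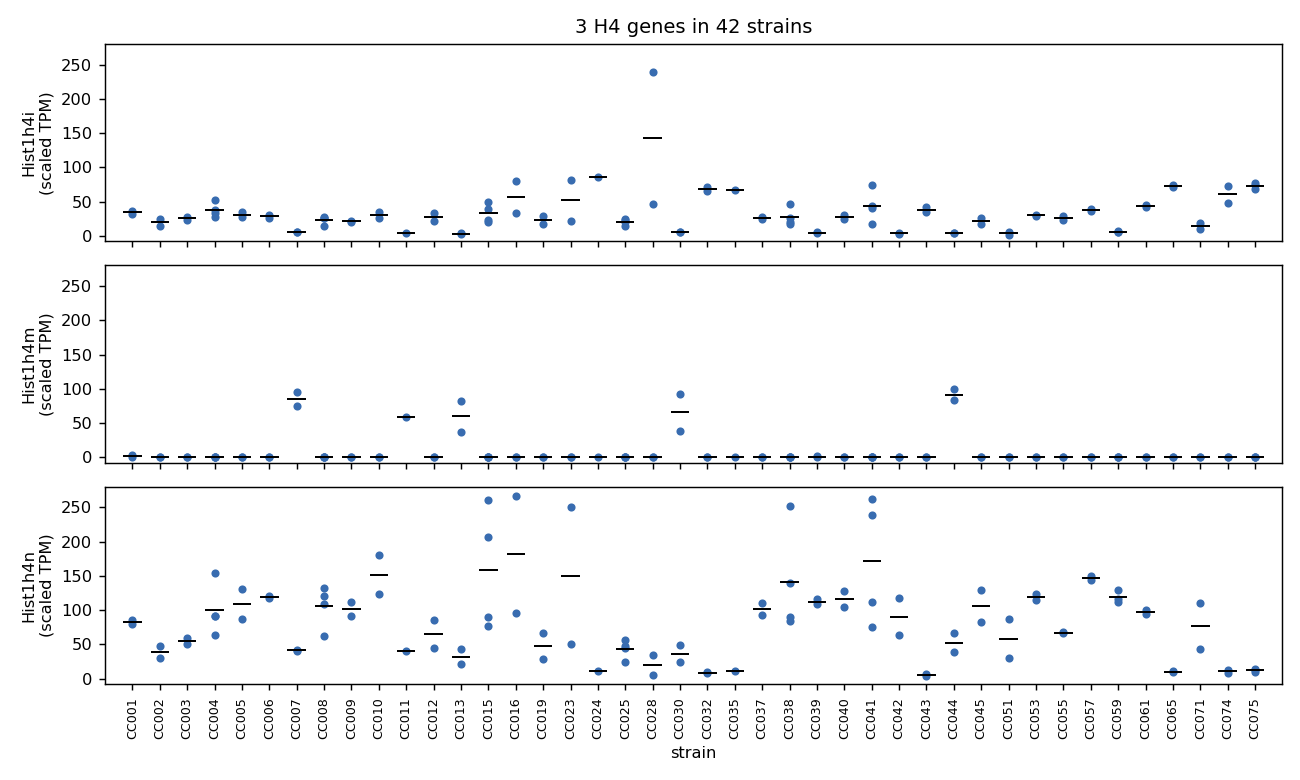
Level of Hist1h4i, Hist1h4m and Hist1h4n (scaled TPM) in 42 strains; points are libraries (the CC030 point of the sample sequenced 2 times is the mean of its runs) and black lines are strain means. Hist1h4m is above 37 in the libraries of 5 strains and under 3 in all others. The strain mean of Hist1h4n is lowest in 8 strains, in which the strain mean of Hist1h4i is 38 or more. Some strains with high Hist1h4n have such means of Hist1h4i too, such as CC016 at 56.8.

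Hist1h4m reached 10 scaled TPM in 5 strains. It was at 75.1 and 95.5 scaled TPM in CC007, 59.6 in CC011, 37.4 and 82.9 in CC013, 38.8 and 92.9 in CC030, and 83.0 and 99.65 in CC044. The 86 libraries of the other 37 strains had at most 2.81. The limit of 10 was set after these values were seen, so the gap between the 2 sets is no test. No strain had libraries on both sides of it, and the matching count over all genes is not given here. The strain effect had an adjusted p of 5.0e-28 and an intraclass correlation of 0.95 (limma). In the same 5 strains Hist1h4i had means of 3.505 to 5.63 and Hist1h4n of 32.04 to 52.4.

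Hist1h4n had strain means of 5.26 to 20.1 in CC024, CC028, CC032, CC035, CC043, CC065, CC074 and CC075 and of at least 32.04 in the other 34 strains. In these 8 strains Hist1h4i had means of 38.5 to 142.8, the latter from 47.2 and 238.5 in the CC028 libraries. Hist1h4i was also low, with means of 3.88 to 6.09, in CC039, CC042, CC051 and CC059, where Hist1h4m was at most 0.767. In the other 25 strains Hist1h4i had means of 15.1 to 56.8. Strain effects had adjusted p of 2.9e-16 for Hist1h4i and 6.7e-13 for Hist1h4n. For Hist1h4m and Hist1h4n summed, the intraclass correlation was 0.78, and for all 3 genes summed it was 0.28, with strain means of 43.7 to 238. How reads were divided between these copies is not stated in the labels, so the level of each single copy is uncertain, and these limits were set after the values were seen. For Hist1h4n, 4 strains had libraries on both sides of 25 scaled TPM.

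Copies of H2A also differed between strains. Hist1h2al, annotated as a pseudogene, shares 67.6% of its 50-base stretches with other genes, and Hist2h2aa2 shares all of them. The gene that shares most is Gm20634, which is not a member. It holds 65.5% of the stretches of Hist1h2al, 89.4% of those of Hist2h2aa1 and all of those of Hist2h2aa2, so it too can take their reads. Hist1h2al had a strain mean of at most 0.729 in CC001, CC003, CC006, CC008, CC016, CC025, CC028, CC032, CC035, CC042 and CC074, and of 9.75 or more in the other 31 strains (CC007, the lowest of these, had 19.4 and 0.146), up to 163 in CC041 and CC010. CC010 had 163 ± 28.2 (SD, n = 2), and the strain effect had an adjusted p of 1.1e-24 (limma). Hist2h2aa2 was at 65.8 to 122 in those 11 strains and at 26.1 to 49.0 in the 8 strains with Hist1h2al means of at least 72.5. Its strain effect had an adjusted p of 6.3e-07, from 122 ± 6.7 in CC016 to 26.1 ± 2.9 in CC043 (SD, n = 2 each). Hist2h2aa1 was at or near 0 in both CC005 libraries, at 42.7 and 104 in CC074, and at 0.00337 and 225.9 in CC028, with an adjusted p of 0.00019 and an intraclass correlation of 0.44. The 3 genes summed, without Gm20634, had an intraclass correlation of 0.20.

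Among the H3 genes, Hist1h3f had the widest called range between strains. Its strain means were 1.06 to 4.64 in CC005, CC008, CC015, CC045, CC053 and CC057 and 6.81 to 35.9 in the other 36 strains, but 5 strains had libraries on both sides of 6 scaled TPM. Against the mean of the other strains it was lower by 2.78 ± 0.48 log2 units in CC045 (adjusted p = 1.6e-05 by limma) and by 1.95 ± 0.34 in CC008 (adjusted p = 2.3e-05). The 4 CC008 libraries had 4.09, 0.830, 3.31 and 1.77. Its closest copy, Hist1h3e, had strain means of 17.7 to 43.9 in those 6 strains and 7.68 to 35.7 in the others. The summed level of both genes had an intraclass correlation of -0.01, where Hist1h3f alone had 0.59. Hist1h3f lost its strain call over the 20 strains with distant sample numbers.

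Hist4h4 differed between strains without a near copy, with 0.711% of its stretches shared. Its strain means were at least 5.25 in 30 strains and at most 4.53 in the other 12, with libraries of 6 strains on both sides of 5 scaled TPM. The strain effect had an adjusted p of 1.7e-08 and an intraclass correlation of 0.65 (limma). It was lower than the mean of the other strains by 1.32 ± 0.24 log2 units in CC051, by 1.11 ± 0.24 in CC032 and by 1.01 ± 0.24 in CC037 (adjusted p = 3.4e-05, 0.00047 and 0.0015). CC032 had 2.70 and 2.61 scaled TPM, and CC074 had 8.72 and 10.6. It kept its strain call over the 20 strains with distant sample numbers.

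Genes with a shallow slope on the cell cycle score also differed between strains. Hist1h1c was at 119.9 and 132.5 scaled TPM in CC045 and at 41.0 and 57.7 in CC071, with a range of 1.37 log2 units and an adjusted p of 1.3e-05 (limma). Hist1h2bc ranged from 96.8 ± 22.6 in CC005 to 51.9 ± 15.7 in CC071 (SD, n = 2 each, adjusted p = 4.8e-05). Hist3h2a, at 11.2 and 9.79 in CC016, was at 4.50 and 3.63 in CC043, where it was lower than in the other strains by 0.94 ± 0.17 log2 units (adjusted p = 3.9e-05). Hist2h2be was low throughout, with a median of 0.881, and was higher in 5 strains, among them CC003 with 1.85 and 1.31. Hist1h1t and Hist3h2bb-ps, at medians of 0.192 and 0.234, passed with adjusted p of 0.033 and 0.0087. Of these, Hist1h1c, Hist1h1t, Hist2h2be and Hist3h2a lost their strain call over the 20 strains with distant sample numbers. Hist1h2ae, Hist1h2bl, Hist1h2bp, Hist1h3c and Hist1h3g passed with adjusted p of 0.012, 0.017, 0.020, 0.040 and 0.021, and lost that call there too.

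Each strain was also set against the mean of the others. Over 62 members and 39 strains, 74 gene and strain pairs were higher than the mean of the other strains and 74 were lower, 3.06% of pairs in each direction, against 7.72% and 7.08% over all genes. Any strain called 36 of the 62 members, against 91.3% of all genes, and 16 were called in 3 or more strains, against 66.5% of all genes. CC015 had 9 members higher (14.5%, against 10.8% of all genes in that strain), CC074 8 (12.9% against 7.93%) and CC028 7 (11.3% against 5.35%). CC043 had 8 lower (12.9% against 14.3%), CC051 7 (11.3% against 5.97%) and CC013 6 (9.68% against 7.08%). Of these, 1 of the 2 CC028 libraries and 2 of the 4 CC015 libraries are among the 10 high ones. Hist1h2ae was higher in CC074, at 16.3 ± 6.6 scaled TPM (SD, n = 2). By the mean of log2 levels, which weighs a single high library less than the mean TPM does, CC074 had the highest strain mean for 25 of the 62 members and CC028 for 16, and CC051 had the lowest for 26 and CC043 for 16. The matching counts over all genes are not given here, so it is not shown that these are particular to histone genes.

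Relations to the osteoblast and macrophage content of the cultures were tested in the same way. With the osteoblast score (the mean z-score of 15 genes of osteoblasts and their matrix), 3 members were higher and none lower over the 42 strain means, against 11.1% of all genes higher and 13.4% lower. These were Hist1h1c with a slope of 0.11 (adjusted p = 0.046 by limma), Hist1h4h with 0.16 (adjusted p = 0.029) and Hist2h4 with 0.16 (adjusted p = 0.0055), the last named after its values were seen. None passed without CC071 and CC030, the 2 strains with osteoblast scores farthest from the median (6.07% of all genes). Without the library numbered second of each strain 28 members were higher (45.2%), against 10.9% of all genes. With the macrophage score no member was higher or lower, against 13.2% and 11.2% of all genes, but 13 were higher without the 10 high libraries, against 13.2% of all genes, and 8 without the library numbered first of each strain, against 12.4%.

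Genes that make and process the histone mRNAs had narrower ranges. Of the histone mRNA processing list, 15 of 19 genes were tested, with a median range between strains of 0.68 log2 units, where the histone genes had 2.49. Slbp, which encodes the stem-loop binding protein, had a median of 14.45 scaled TPM (11.8 to 23.1) and was higher with the cell cycle score, at 0.09 ± 0.02 log2 units per SD (adjusted p = 0.00014 by limma). Eri1, which encodes an exonuclease that trims the stem-loop, had a slope of 0.07 (adjusted p = 0.0020) and a level of 3.40 to 5.54. The other 13 did not pass, among them Npat, the S phase activator of histone genes, at 5.08 (4.16 to 6.47), Lsm10 and Lsm11 of the U7 snRNP at 13.3 and 2.26, and Cpsf3, the nuclease of the cleavage complex, at 15.0. On strain, 13 of the 15 passed, a share near the 81.5% of all genes, with a median intraclass correlation of 0.35 beside 0.47 for all genes.

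Of the 16 histone chaperone genes, 7 were higher with the score and none lower, among them Asf1b (slope 0.31, adjusted p = 2.8e-11 by limma), Chaf1a (0.22, adjusted p = 0.00093) and Chaf1b (0.24, adjusted p = 5.3e-05) of the replication-coupled assembly pathway. Hjurp, the chaperone of the centromeric H3, had a slope of -0.11 (adjusted p = 0.50). Of the 16 mitosis genes all were higher, and of the 32 cell cycle genes 26 were, each tested against a score without itself. Mki67 had a slope of 0.53 (adjusted p = 4.0e-12).

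Most replication-independent variants are known to be made outside S phase too, from mRNAs with a poly(A) tail. Exceptions are H2afx, whose mRNA is known in both a stem-loop and a poly(A) form, and Cenpa, known to be expressed late in the cycle. Of 11 tested, 2 were higher with the score: Cenpa, the centromeric H3, with a slope of 0.47 (adjusted p = 2.1e-08 by limma), and H2afx with 0.28 (adjusted p = 8.6e-10). H3f3a and H3f3b, which encode H3.3, had medians of 352 (299 to 437) and 183.2 (148 to 251) scaled TPM and slopes of -0.04 each (adjusted p = 0.30 and 0.29). H2afz, which encodes H2A.Z, had a median of 120 (83.9 to 167.2) and a slope of 0.02, and H1f0, the linker histone of differentiated cells, a median of 91.9 (37.0 to 125.5) and a slope of -0.08 (adjusted p = 0.30). The lowest H3f3a level, 299, was above the median of the summed H3 genes, 79.7, on the length-corrected scale. The H3 sum varied more, and in CC028 replicate 2 it was 592, above the highest H3f3a level of 437. Hist1h3h and Hist1h3i are not in that sum.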

How the data were processed

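Total RNA was sequenced from 95 samples in 96 runs; the 2 runs of 1 sample were averaged. The values are TPM per transcript as the authors deposited them. Bowtie and the mm9 build are named per the submitters' processing notes, and how reads shared by near-identical genes were divided is not stated there. TPM keeps no read depth, so the depth of each library is unknown. Of 94545 transcripts, 91225 matched GENCODE vM21 and were summed per gene (37945 genes). Each library was scaled by a trimmed mean of log ratios (factors 0.772 to 1.27). Genes with at least 0.5 TPM in at least 2 libraries (15760) were tested on log2(scaled TPM + 0.5), a scale that understates changes of low genes, with limma 3.58.1 in R 4.3.3 and Benjamini-Hochberg adjustment over all genes.

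The strain effect was limma's moderated F test (53 residual degrees of freedom), followed by each strain against the mean of the others. Slopes on 3 scores (cell cycle, osteoblast, macrophage) were fitted over strain means. Tables were made with Python 3.11.15. The tests were run on simulated data with independent noise for each gene and effects set per strain. Shifts shared by many genes between libraries of a strain, as seen here, were not simulated, so the tests were not checked under them. Members given in full were the 4 most abundant of each class, the 6 with the largest called range, those with more than 1 transcript and a median of at least 1 TPM, and those called in 3 or more strains; any other member named was chosen after its values were seen. The members and gene lists were chosen with earlier results of these data known. Alternatives were the pseudocount, the filter, the scaling, each replicate left out, each run alone, CC051 left out, and strains with close or distant sample numbers. The fits over distant numbers used only the lowest and the highest numbered library of each strain. The fits without the libraries with titles Farber_12 to Farber_20 and Farber_153 to Farber_179, within strains, and without the 2 strains farthest from the median score were chosen after seeing the data.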

Additional observations from a re-analysis of the deposited data

Results flagged for a closer look

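In the 6 strains with 4 libraries, 6 sums (each histone class and the total) were examined for a library far from the other 3, which is 36 groups, of which chance flags about 1 in 20. In CC004, replicate 1 had an H2B sum of 564.1 scaled TPM beside 314.8, 316.8 and 349.9 in the others. The same library had an H3 sum of 209.3 where the lowest of the others had 73.53. In CC008, replicate 2 had an H2B sum of 225.6 beside 355.9, 358.6 and 363.9. The cause was not tested.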

How the results depend on the processing

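No paired analysis was possible because the labels carry no replicate numbers; those used here only follow the order of the sample records. The strain effect, 19 members as reported, called 42 on deposited TPM, 9 over strains with distant sample numbers, 57 over strains with close numbers, 54 without the 10 libraries with titles Farber_12 to Farber_20 and Farber_153 to Farber_179, and 9 to 20 with 1 replicate number left out (9 of 62 without replicate 1, where 35.7% of all genes passed, and 10 without replicate 2, where 41.7% did). Calls of single strains, 3.06% of gene and strain pairs higher and 3.06% lower, were 1.05% and 1.21% over distant numbers, 12.0% and 11.3% over close numbers and 6.64% and 8.11% without the 10 libraries, and ranged from 1.08% to 2.94% and from 1.61% to 3.02% with 1 replicate number left out. The matching pair shares over all genes are not given here. By the strain test all genes moved too, with 41.7% called over distant and 87.0% over close numbers. Members higher with the cell cycle score, 45 as reported, were 22 over close numbers and 44 to 51 with 1 replicate number left out (2.57% to 4.81% of all genes), and within strains 1 was lower. Members higher with the osteoblast score, 3 as reported, were 6 over distant numbers (5.27% of all genes; 1 lower, 7.49%), 0 over close numbers (4.51%), 1 without CC051 (11.8%), 1 without the 10 libraries (10.7%), 0 without the 2 strains farthest from the median score (6.07%), and 1 to 28 with 1 replicate number left out. Members higher with the macrophage score, 0 as reported, were 2 on deposited TPM (20.2% of all genes), 1 on the protein-coding scale (16.3%), 1 with the second run only (13.1%), 13 without the 10 libraries (13.2%), 1 without the 2 farthest strains (10.0%) and 0 to 8 with 1 replicate number left out (8 without replicate 1, 12.4% of all genes), and within strains 1 was lower (10.8%). The causes were not tested, and fewer libraries entered the subsets. Of the single-gene results on strain, 422 kept their call, 47 gained and 25 lost it, and on the cell cycle score 500, 34 and 26. Read depth is unknown, so low levels carry no counting error here.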
